A study of Mus musculus with 16 samples.

Results

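De novo lipogenesis, the making of fatty acids from acetyl-CoA, was described through 10 genes in RNA-seq libraries of mouse liver: Acly, Acss2, Me1, Acaca, Fasn, Thrsp, Gpam, Pnpla3, Srebf1 and Mlxipl. They were grouped by function, as enzymes of the pathway and their regulators, with earlier results of these data known. Each matched 1 of the 54838 genes in the count table, and all 10 passed the filter on low counts. All mice carried HrasG12V, an activated form of the oncogene Ras, on a transgene according to the labels' protocols. The libraries come from tumors of mice that received a decoction of traditional Chinese medicine (TCM), tumors of control mice, peri-tumor liver (the tissue around tumors) of TCM mice and peri-tumor liver of control mice. Each of these 4 groups holds 4 libraries, and each of the 8 mice gave 1 tumor and 1 peri-tumor library. All samples are labelled 3 months, which may be an age or a length of treatment. The sources used here do not give the promoter of the transgene, the composition and dose of the decoction, what controls received, whether these mice had the carcinogen DEN that the protocols name, or the time since the last meal.

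In lipogenesis, citrate exported from mitochondria is split by ATP citrate lyase (Acly) and acetate is activated by acetyl-CoA synthetase (Acss2), both giving cytosolic acetyl-CoA, while cytosolic malic enzyme (Me1) supplies NADPH. Acetyl-CoA carboxylase (Acaca) then makes malonyl-CoA, fatty acid synthase (Fasn) builds palmitate from it, and mitochondrial glycerol-3-phosphate acyltransferase (Gpam) starts glycerolipid assembly. In liver the pathway is known to be induced by feeding, through SREBP1 (Srebf1), which responds to insulin, and ChREBP (Mlxipl), which responds to sugars. Thrsp, also called Spot 14, is a small protein induced by carbohydrate and thyroid hormone together with these enzymes, and Pnpla3 is a lipid droplet protein whose gene is a target of SREBP1.

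Total counts per library ran from 13947483 to 16194224. Levels below are in CPM, the count as parts of 1e6 of the library total scaled by TMM factors (0.834 to 1.12). The 9 hepatocyte markers together gave 121863 to 192593 CPM in TCM tumors, 115566 to 163013 in control tumors, 102156 to 151937 in TCM peri-tumor liver and 77596 to 115911 in control peri-tumor liver. Such a sum follows its most abundant genes, and the markers were split. Of the 9, 3 were called higher and 3 lower in control tumors (median log2 -0.19), and 1 higher and 2 lower in TCM tumors (0.097). Their part in the results below was not tested. Of the 6 adipocyte markers, Plin1 and Lep had 0 counts in all 16 libraries, while Adipoq had some counts in both control groups and none in TCM mice. The 6 together gave 21.2 to 72.9 CPM in TCM tumors, 14.6 to 33.6 in control tumors, 8.77 to 10.4 in TCM peri-tumor liver and 8.22 to 18.6 in control peri-tumor liver. The sum thus moved with tissue in TCM mice. The only marker of the 6 that passed the filter was called higher in tumors of TCM (log2 2.08) and control mice (1.06). The part of these markers in the results below was not tested. The 6 macrophage markers gave 72.7 to 242 CPM in TCM tumors, 171 to 371 in control tumors, 197 to 279 in TCM peri-tumor liver and 368 to 764 in control peri-tumor liver. These sums parted without overlap between treatments in peri-tumor liver, and overlapped between treatments in tumors and between tissues. Of the 6, 4 were called lower in control tumors and 1 in TCM tumors. With TCM 4 were called lower in peri-tumor liver and 1 in tumors. Their part in the results below was not tested. The sum of the 6 stellate cell and fibroblast markers moved with tissue in control mice (222 to 331 CPM in tumors, 96.3 to 168 in peri-tumor liver). These markers were split, with 3 called higher and 1 lower in control tumors, and 3 higher and 2 lower in TCM tumors. The sum of the 5 cholangiocyte markers moved with tissue in TCM mice (18.8 to 27.1 in tumors, 8.26 to 15.3 in peri-tumor liver) and in control mice (18.4 to 28.3 in tumors, 9.10 to 14.9 in peri-tumor liver). Only 3 of the 5 were tested, with 1 called higher and 1 lower in control tumors, and 1 higher and 0 lower in TCM tumors. The part of both lists was not tested either. The 3 proliferation markers gave 38.5 to 81.4 CPM in TCM tumors, 23.1 to 33.2 in control tumors, 2.51 to 16.2 in TCM peri-tumor liver and 4.90 to 9.16 in control peri-tumor liver, so that they moved with tissue in both treatments and with treatment in tumors, and their part was not tested. Control mouse 4 stood apart from the other controls: without its pair of libraries 3434 genes were called between treatments in peri-tumor liver, against 2091 with them, and 1877 in tumors, against 1082.

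Of the 10 genes 4 lie on chromosome 11 (GENCODE, GRCm38): Acly at 100476353-100528000, Acaca at 84129672-84401651, Fasn at 120805846-120824547 and Srebf1 at 60199089-60222581. Thrsp lies on chromosome 7 at 97412938-97417730, Acss2 on chromosome 2 at 155517948-155585724, Me1 on chromosome 9 at 86581371-86695953, Gpam on chromosome 19 at 55067268-55127238, Pnpla3 on chromosome 15 at 84167837-84187236 and Mlxipl on chromosome 5 at 135089890-135138382. The promoter windows of 5 of the genes are shown because Fasn, Thrsp and Srebf1 varied together from mouse to mouse and Acss2 and Me1 were the members called higher in TCM mice. Each window runs from 250 bases before to 50 after a transcription start in RefSeq (GRCm38.p6), 5′ to 3′ on the gene's strand, and all 10 genes matched the RefSeq table, with 15 windows. Capitals mark TCACCC (the first letters of the sterol regulatory element of the LDL receptor gene), CCAAT (the box bound by NF-Y) and GGGCGG (the GC box bound by Sp1), each on either strand. Srebf1 has 3 such starts and Me1 has 2; the windows shown for them are those that hold TCACCC, and that of Srebf1 lies inside the span of the gene. The counts do not separate transcripts by start.
Srebf1, chr11:60210422-60210721, minus strand: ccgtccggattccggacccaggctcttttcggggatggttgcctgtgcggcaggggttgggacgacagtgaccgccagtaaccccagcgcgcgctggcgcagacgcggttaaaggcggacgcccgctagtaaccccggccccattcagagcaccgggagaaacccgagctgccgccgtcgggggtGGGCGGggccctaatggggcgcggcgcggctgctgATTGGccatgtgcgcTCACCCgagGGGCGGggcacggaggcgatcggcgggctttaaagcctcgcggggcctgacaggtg
Fasn, chr11:120824498-120824797, minus strand: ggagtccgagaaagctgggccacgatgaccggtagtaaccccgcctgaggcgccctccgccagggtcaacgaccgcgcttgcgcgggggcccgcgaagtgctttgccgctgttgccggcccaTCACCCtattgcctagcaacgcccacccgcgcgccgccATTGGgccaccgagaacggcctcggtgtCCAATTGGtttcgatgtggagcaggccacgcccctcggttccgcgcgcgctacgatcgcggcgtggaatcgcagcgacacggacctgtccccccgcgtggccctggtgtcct
Thrsp, chr7:97417501-97417800, minus strand: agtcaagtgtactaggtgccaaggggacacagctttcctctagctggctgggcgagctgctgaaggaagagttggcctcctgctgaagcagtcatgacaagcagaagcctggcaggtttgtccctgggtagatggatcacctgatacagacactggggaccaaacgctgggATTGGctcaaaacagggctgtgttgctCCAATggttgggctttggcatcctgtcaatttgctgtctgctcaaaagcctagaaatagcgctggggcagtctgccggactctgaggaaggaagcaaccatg
Acss2, chr2:155517793-155518092, plus strand: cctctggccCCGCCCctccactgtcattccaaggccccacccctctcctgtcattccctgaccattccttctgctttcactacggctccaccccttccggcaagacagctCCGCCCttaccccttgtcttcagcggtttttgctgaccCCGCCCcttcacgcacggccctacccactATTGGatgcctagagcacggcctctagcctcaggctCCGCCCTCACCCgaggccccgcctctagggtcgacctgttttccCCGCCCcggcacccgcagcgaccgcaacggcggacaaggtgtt
Me1, chr9:86695865-86696164, minus strand: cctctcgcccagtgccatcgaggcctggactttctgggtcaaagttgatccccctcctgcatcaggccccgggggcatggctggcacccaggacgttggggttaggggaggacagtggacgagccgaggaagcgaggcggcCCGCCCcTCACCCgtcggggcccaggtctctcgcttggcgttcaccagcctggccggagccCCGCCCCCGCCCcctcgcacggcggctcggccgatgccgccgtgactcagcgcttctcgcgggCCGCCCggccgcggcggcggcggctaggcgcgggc
In the Srebf1 window TCACCC begins 15 bases before the start. It lies between a CCAAT box on the minus strand that begins 30 bases before the start and a GC box that begins 6 bases before it. The Fasn window holds TCACCC beginning 128 bases before the start and 3 CCAAT boxes, 2 of which overlap on opposite strands. The Thrsp window has 2 CCAAT boxes and neither TCACCC nor GGGCGG. The Acss2 and Me1 windows hold 5 and 4 GC boxes, and in both of them TCACCC stands beside a GC box, as in the Srebf1 window. The Srebf1 and Me1 windows were picked among those of their genes for holding TCACCC. How often TCACCC stands beside a GC box in all windows was not counted. Over all 15 windows, TCACCC was present in 6 (16.2% of 32851 promoter windows of the same length hold it), CCAAT in 10 (37.4%) and GGGCGG in 8 (35.7%). The full sterol element TCACNCCAC, which contains TCACCC where N is C, was found in 1 window, of Mlxipl (1.24% of all windows), and the E-box CACGTG in another Mlxipl window (7.15%). These matches are letters in a window and were not tested as binding sites.

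The levels of the genes were set side by side in the authors' FPKM, which are not TMM-scaled and divide by a length per gene. In control peri-tumor 1, Acss2 had 1078 counts and 5.21 FPKM, and Gpam 1842 counts and 29.7 FPKM. The longest transcript of Acss2 (3609 bases) is shorter than that of Gpam (6172), so the lengths used were not those of the longest transcripts. The order of genes below depends on these lengths, whose correctness was not tested. In control tumors Acly averaged more CPM than Gpam (601 against 542), though the longest transcript of Acly (4426 bases) is shorter than that of Gpam. Per base of longest transcript Acly would thus stand above Gpam there. The places below hold only for the lengths in the authors' FPKM. In tumors Gpam stood first, with 209 ± 101.7 FPKM in TCM mice and 150.5 ± 19.4 FPKM in control mice (mean ± SD, n = 4 each), followed by Fasn with 104.6 ± 33.7 and 93.9 ± 28.7 FPKM. The ranges of Gpam and Fasn overlapped in TCM tumors and not in control tumors. In peri-tumor liver Thrsp stood first, with 114 ± 77.7 FPKM in TCM mice and 429.7 ± 308 FPKM in control mice, with ranges that overlapped those of the next gene. Srebf1 took place 6 in TCM peri-tumor liver at 23.4 ± 16.1 FPKM and place 3 in control peri-tumor liver at 107 ± 53.4 FPKM. Me1 took place 3 in TCM peri-tumor liver at 62.2 ± 14.3 FPKM and place 7 in control peri-tumor liver at 14.3 ± 3.36 FPKM. Acaca, Acss2, Pnpla3 and Mlxipl had group means of 5.07 to 21.2 FPKM, and Pnpla3 and Acaca were last or last but one in both TCM groups without parting beyond their ranges.

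**Figure D1:**
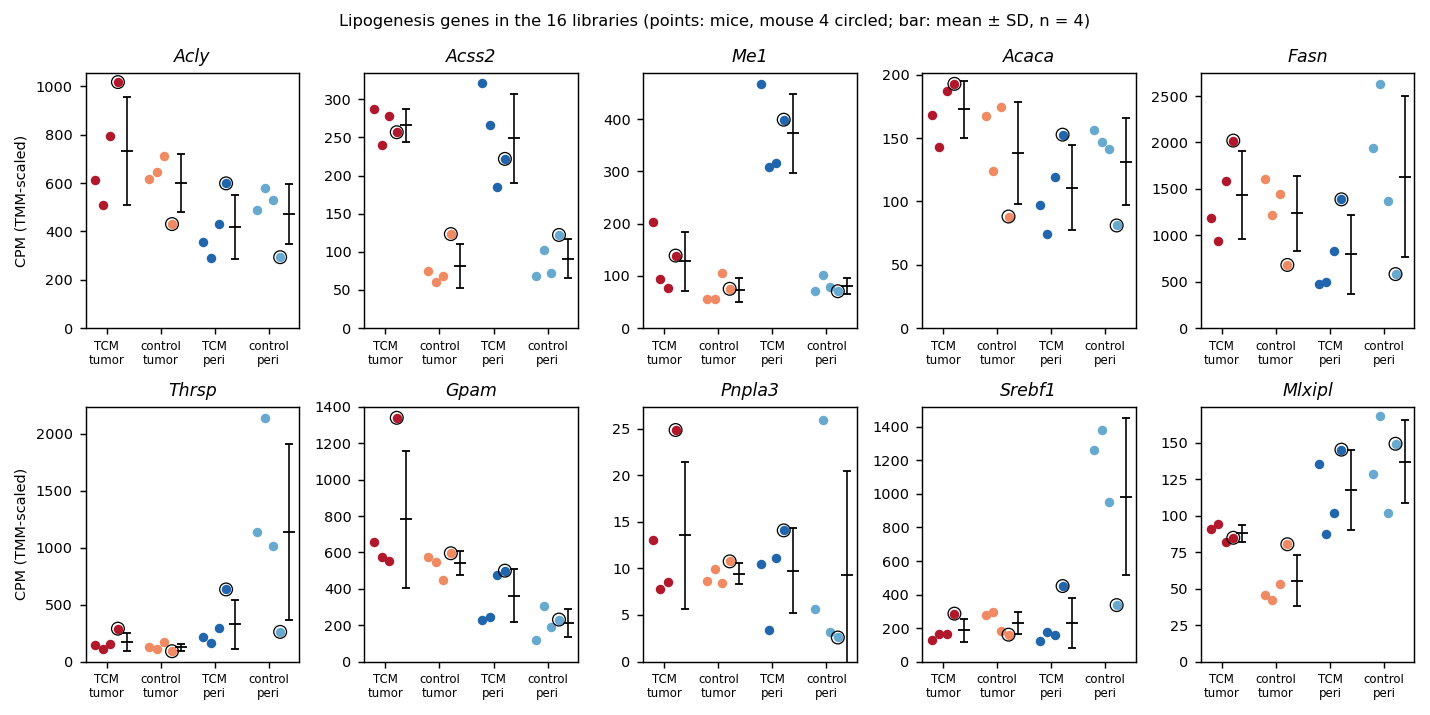
CPM of the 10 lipogenesis genes (vertical axes, linear from 0) in TCM tumors, control tumors, TCM peri-tumor and control peri-tumor liver. Points are mice, with mouse 4 of each treatment circled, and bars give mean ± SD (n = 4). Srebf1 and Thrsp are high in 3 of the 4 control peri-tumor libraries, and Acss2 separates TCM from control libraries in both tissues.

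The first comparison asked how tumors differ from the liver around them in control mice. Both transcription factor genes and Thrsp were lower in tumors, Gpam was higher, and the genes of acetyl-CoA supply and fatty acid synthesis themselves were not called. Thrsp fell 9.13-fold, Srebf1 4.31-fold and Mlxipl 2.47-fold, and Gpam rose 2.56-fold. Of the 10 genes, 4 were called at an adjusted p under 0.05, beside 43.2% of all 14865 genes tested: 1 was higher (22% of all genes) and 3 were lower (21.2%). The same 4 had libraries that did not overlap between tissues, as had 38.9% of all genes. In bulk tissue, fewer cells that express a gene and less RNA per cell cannot be told apart.

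Srebf1, which encodes the insulin-responsive factor SREBP1, had 278, 293, 183 and 160.4 CPM in tumors of control mice 1 to 4, against 1261, 1385, 954 and 337 CPM in their peri-tumor liver. All 4 mice had less in the tumor, and mouse 4 had the lowest level of the 4 in both tissues. The log2 fold change was -2.11 ± 0.45 (SE; adjusted p = 0.00133, Benjamini-Hochberg, from edgeR's quasi-likelihood F test). Mlxipl, which encodes the sugar-responsive factor ChREBP, had 45.7, 42.5, 53.4 and 80.4 CPM in control tumors, against 128, 168, 101.7 and 149 CPM in control peri-tumor liver, without overlap (-1.30 ± 0.21, adjusted p = 1.28e-04, edgeR). Thrsp had 131, 109.9, 167 and 90.6 CPM in control tumors, against 1134, 2137, 1019 and 260.4 CPM in control peri-tumor liver. It differed most of the 10 genes (-3.19 ± 0.55, 95% interval -4.36 to -2.02, adjusted p = 2.51e-04, edgeR), and the peri-tumor library of mouse 4 was again the lowest of its group.

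Gpam, the acyltransferase of the first step of glycerolipid synthesis, had 575, 546, 450.1 and 596 CPM in control tumors, against 117, 308, 192 and 231 CPM in control peri-tumor liver. Every tumor library lay above every peri-tumor library (1.35 ± 0.34, adjusted p = 0.00456, edgeR). Fasn, the enzyme that makes palmitate, had 1602, 1223, 1446 and 680.1 CPM in control tumors, against 1942, 2632, 1373 and 582 CPM in control peri-tumor liver. These ranges overlapped, with 2 mice higher and 2 lower in the tumor, and the interval of the log2 difference ran from -1.31 to 0.51. Acly had 618, 647, 711 and 430.4 CPM in control tumors, against 488, 578, 531 and 293 CPM in control peri-tumor liver, and was higher in the tumor of all 4 mice. Its log2 fold change of 0.35 was not called (adjusted p = 0.309, edgeR), while with the mouse as a block it was called at 0.37 (adjusted p = 0.0122, edgeR). Acaca had 167, 124, 175 and 88.1 CPM in control tumors, against 156, 147, 141 and 81.1 CPM in control peri-tumor liver, and mouse 4 was the lowest in both. Acaca (0.075, 95% interval -0.45 to 0.60), Acss2 (-0.16, -0.65 to 0.33) and Me1 (-0.13, -0.72 to 0.45) were not called on the log2 scale. Pnpla3 had 8.62, 9.97, 8.42 and 10.7 CPM in control tumors, against 5.60, 26.0, 3.18 and 2.58 CPM in control peri-tumor liver. The peri-tumor library of mouse 2 held the highest level of the 16 libraries, and without it Pnpla3 was called higher in tumors (log2 1.29, adjusted p = 0.0395, edgeR).

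The second comparison asked the same of TCM mice. Acly and Gpam were higher in tumors, Me1 was lower, and neither transcription factor gene nor Thrsp was called. Me1, the NADPH-supplying malic enzyme, had 203, 93.6, 75.8 and 139 CPM in tumors of TCM mice 1 to 4, against 467, 308, 316 and 399 CPM in their peri-tumor liver. It fell 2.91-fold with no overlap (log2 -1.54 ± 0.28, adjusted p = 6.04e-04, edgeR). Of the 10 genes 3 were called, beside 32.9% of all genes tested: 2 were higher (17.3%) and 1 was lower (15.6%). Libraries did not overlap between tissues for 2 of the 10 (Me1 and Gpam), beside 33.9% of all genes.

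Acly, which makes acetyl-CoA from citrate, had 611, 511, 796 and 1018 CPM in TCM tumors, against 354, 291, 429.9 and 599 CPM in TCM peri-tumor liver. It was higher in the tumor of each mouse although the groups overlapped (0.81 ± 0.27, adjusted p = 0.0278, edgeR). Gpam had 655, 576, 556 and 1341 CPM in TCM tumors, against 226, 245, 478 and 499.8 CPM in TCM peri-tumor liver, and did not overlap (1.11 ± 0.34, adjusted p = 0.0194, edgeR). The tumor of mouse 4 held far more Gpam than those of the other mice, and without that library the log2 fold change was 0.73 and was not called (adjusted p = 0.0872, edgeR). Both calls were also lost without TCM peri-tumor 1 or 2 (Gpam 0.94 and 0.96, Acly 0.74 and 0.67), and that of Acly without TCM peri-tumor 3 (0.82), TCM tumor 3 (0.77) or TCM tumor 4 (0.62).

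Fasn had 1185, 940.4, 1582 and 2019.6 CPM in TCM tumors, against 473, 492, 826 and 1387 CPM in TCM peri-tumor liver. The groups overlapped through the peri-tumor library of mouse 4, and the tumor was higher in 4 of 4 mice. Fasn was not called without pairing (log2 0.85 ± 0.43, adjusted p = 0.147, edgeR) and was called with the mouse as a block (0.93, adjusted p = 0.00688, edgeR). Acaca, the carboxylase that feeds Fasn, had 168, 143, 187 and 193 CPM in TCM tumors, against 97.2, 74.2, 119 and 153 CPM in TCM peri-tumor liver. It too was higher in 4 of 4 tumors and was called in the paired fit (0.64 ± 0.25, adjusted p = 0.0605 unpaired, and 0.68, adjusted p = 0.00207 with the block, edgeR). Reads of Acaca and Me1 may have been split with processed pseudogenes, Gm5182 for Acaca and Gm7049 and Gm7329 for Me1: of the stretches of 50 bases in each gene's longest transcript, 52.6% and 26.5% are found in other genes too. The pseudogenes held 30.3% to 40.4% of the summed counts for Acaca and 13.7% to 19.5% for Me1. With the pseudogene counts added, Acaca was called (adjusted p = 0.048, edgeR) and no call of Me1 changed. Thrsp was lower in the tumor of all 4 TCM mice without being called (-0.91, 95% interval -1.998 to 0.18). Mlxipl had 136, 87.6, 101.9 and 145 CPM in TCM peri-tumor liver and was lower in 3 of 4 TCM tumors. Pnpla3 had 13.0, 7.76, 8.58 and 24.8 CPM in TCM tumors, against 10.4, 3.37, 11.1 and 14.1 CPM in TCM peri-tumor liver, and these overlapped. Srebf1 (-0.29, -1.21 to 0.63), Mlxipl (-0.42, -0.86 to 0.018), Acss2 (0.095, -0.40 to 0.59) and Pnpla3 (0.47, -0.82 to 1.76) were not called either on the log2 scale.

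**Figure D2:**
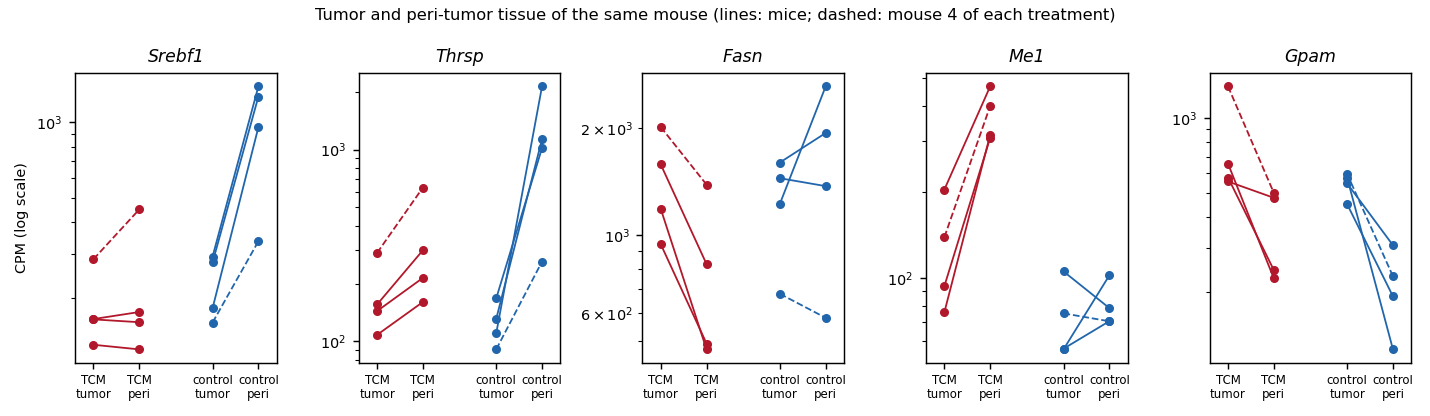
CPM (log axis) of Srebf1, Thrsp, Fasn, Me1 and Gpam in the tumor and the peri-tumor liver of each mouse, joined by a line, with TCM mice left in red and control mice right in blue and mouse 4 of each treatment dashed. Fasn is higher in the tumor of 4 of 4 TCM mice and of 2 of 4 control mice, and Me1 is lower in the tumor of 4 of 4 TCM mice.

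The next comparison set TCM against control mice in peri-tumor liver. The members moved in opposite directions: Me1 and Acss2 were higher in TCM mice, and Srebf1 and Thrsp were lower. Me1 rose 4.63-fold and Acss2 2.73-fold, while Srebf1 fell 4.31-fold and Thrsp 3.48-fold. Of the 10 genes 4 were called, beside 14.1% of all genes tested: 2 were higher (6.71%) and 2 were lower (7.35%). Libraries did not overlap between treatments for 2 of the 10 (Me1 and Acss2), beside 18% of all genes. The median log2 fold change of the 10 was -0.20, against -0.0042 over all genes. Comparisons that have a group in common share its libraries, as this one shares the 4 control peri-tumor libraries with that of tissues in control mice, so that their folds are not independent.

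Me1 had 467, 308, 316 and 399 CPM in TCM peri-tumor liver, against 70.6, 102.0004, 78.4 and 70.5 CPM in control peri-tumor liver. The lowest TCM library, that of mouse 2, lay well above the highest control library, also that of mouse 2 (log2 2.21 ± 0.29, adjusted p = 4.38e-04, edgeR). Acss2, which makes acetyl-CoA from acetate, had 321, 267, 185 and 222 CPM in TCM peri-tumor liver, against 68.7, 102.1, 71.6 and 122 CPM in control peri-tumor liver. The groups did not overlap (1.45 ± 0.24, adjusted p = 0.00165, edgeR), and mouse 4 was the highest of the controls. The gene Gss lies over part of Acss2 on the opposite strand and had 783 to 2278 counts per library, and the sources used here do not say whether counting used the strand.

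Srebf1 had 126, 177, 161 and 450.4 CPM in TCM peri-tumor liver, against 1261, 1385, 954 and 337 CPM in control peri-tumor liver. The groups overlapped only in mouse 4, the highest of the TCM mice and the lowest of the controls (-2.11 ± 0.45, adjusted p = 0.00747, edgeR). Without both libraries of control mouse 4 the log2 fold change was -2.40, and without both of TCM mouse 4 it was -2.67. Thrsp had 214, 160.2, 298 and 633 CPM in TCM peri-tumor liver, against 1134, 2137, 1019 and 260.4 CPM in control peri-tumor liver, with overlap through the low library of control mouse 4 (-1.80 ± 0.52, adjusted p = 0.0333, edgeR). Its call was the least stable of the 4: the adjusted p was 0.123 without control peri-tumor 2 and was over 0.05 without control peri-tumor 1 or 3 or TCM peri-tumor 1, 2 or 3.

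Fasn had 473, 492, 826 and 1387 CPM in TCM peri-tumor liver, against 1942, 2632, 1373 and 582 CPM in control peri-tumor liver, and was not called (-1.04, 95% interval -1.96 to -0.12, adjusted p = 0.119, edgeR). Mouse 4 was again the highest of the TCM mice and the lowest of the controls, and Fasn was called lower without both libraries of control mouse 4 (-1.33, adjusted p = 0.017, edgeR) and without those of TCM mouse 4 (-1.45, adjusted p = 0.0482, edgeR). Gpam had a log2 fold change of 0.77 (95% interval 0.055 to 1.49, adjusted p = 0.136, edgeR) and was called under no alternative. Acly (-0.18, -0.74 to 0.39), Acaca (-0.25, -0.78 to 0.28), Mlxipl (-0.22, -0.66 to 0.22) and Pnpla3 (0.057, -1.24 to 1.36) were not called on the log2 scale.

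**Figure D3:**
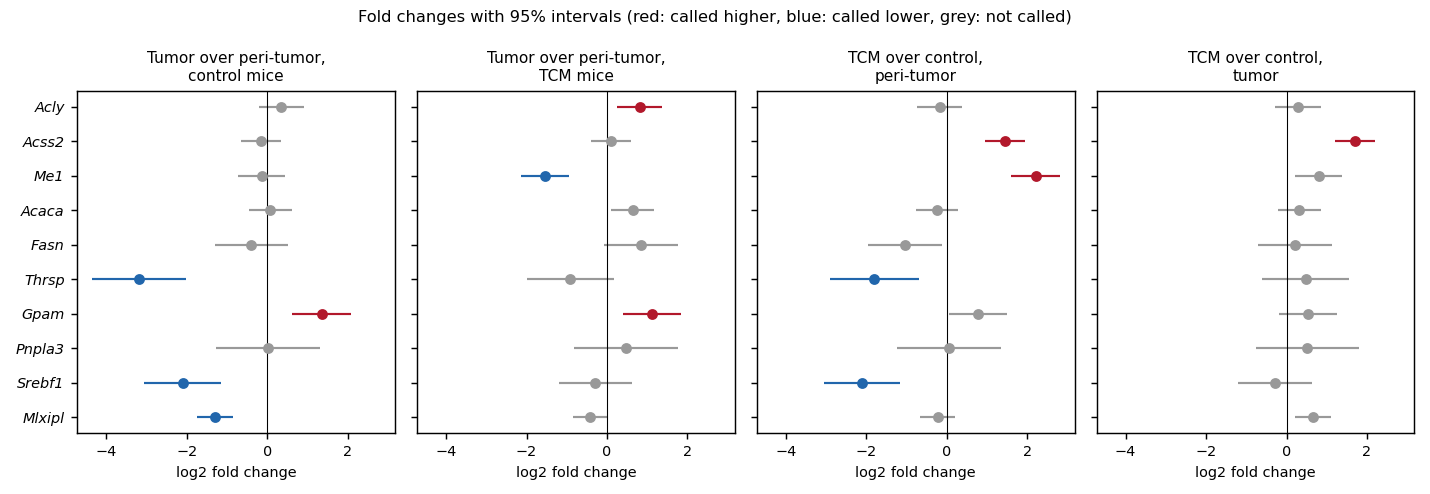
Log2 fold changes (horizontal axes) of the 10 genes with 95% intervals from the edgeR fit in the 4 comparisons, red where called higher, blue where called lower and grey where not called. Gpam is called higher in tumors of both treatments, Acss2 is called higher in TCM mice in both tissues, and Srebf1 and Thrsp are called lower in control tumors and in TCM peri-tumor liver.

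The last of the pairwise comparisons set TCM against control mice in tumors, where 1 of the 10 genes was called, beside 7.28% of all genes tested (4.55% higher and 2.72% lower). This was Acss2, with 287, 240.3, 278 and 257 CPM in TCM tumors, against 74.7, 60.2, 67.8 and 123 CPM in control tumors. The TCM tumors lay close together and all above the highest control tumor, which was again that of mouse 4. Acss2 rose 3.26-fold (log2 1.70 ± 0.24, adjusted p = 0.00153, edgeR), and its tumor effect did not differ detectably between treatments (0.26, 95% interval -0.44 to 0.95).

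Mlxipl had 90.9, 94.2, 81.7 and 84.8 CPM in TCM tumors, against 45.7, 42.5, 53.4 and 80.4 CPM in control tumors. Although the groups did not overlap, it was not called (0.66 ± 0.21, adjusted p = 0.0632, edgeR); without both libraries of control mouse 4 it was called higher (0.93, adjusted p = 0.00755, edgeR). Groups that do not overlap were found for 15.9% of all genes in this comparison and for 2 of the 10 members. Me1 had 203, 93.6, 75.8 and 139 CPM in TCM tumors, against 56.5, 56.2, 105.4 and 75.2 CPM in control tumors, overlapped and was not called (0.80, 95% interval 0.21 to 1.39, adjusted p = 0.0881, edgeR). The genes that were lower in TCM peri-tumor liver showed intervals on both sides of 0 in tumors: Srebf1 -0.29 (-1.21 to 0.63) and Thrsp 0.48 (-0.60 to 1.56) on the log2 scale. Srebf1 had 131, 166, 165 and 286 CPM in TCM tumors and Thrsp 144, 107.9, 155 and 289 CPM, in both cases within overlap of the control tumors given above. Fasn (0.21), Acly (0.29), Acaca (0.32), Gpam (0.53) and Pnpla3 (0.52) were not called, with intervals that included 0.

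Whether the tumor effect itself differed between treatments was tested as the difference of the log2 fold changes. Of the 10 genes 0 were called by edgeR, beside 1.11% of all genes (0.706% higher and 0.404% lower). At an unadjusted p under 0.05 edgeR gave 4 of 10, beside 17.5% of all genes: Thrsp (TCM minus control 2.28, adjusted p = 0.119), Srebf1 (1.82, adjusted p = 0.139), Mlxipl (0.88, adjusted p = 0.132) and Me1 (-1.41, adjusted p = 0.0807). DESeq2 called 3 (Srebf1, Thrsp and Me1), limma-voom called 0, and the mouse block called Srebf1 (1.81, adjusted p = 0.0308, edgeR). Without both libraries of control mouse 4, Thrsp (2.53) and Mlxipl (1.11) were called. Calls in control and not in TCM mice, as for Srebf1, Thrsp and Mlxipl, are therefore not shown to be a difference between treatments by the fit of all libraries.

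The genes were also compared with each other across mice, as a description. Once group means were removed, Fasn correlated with Thrsp at 0.94, with Acly at 0.92, with Acaca at 0.91 and with Srebf1 at 0.87 (Pearson's r of log2 CPM, 16 libraries sharing 4 groups). Among the 9505 genes that averaged 5 CPM or more and had a name other than that of a predicted or cloned transcript, these 4 were the most like Fasn, followed by Por (0.87), the reductase that passes electrons to cytochrome P450 enzymes. Mouse 4 of both treatments contributes to these values, as the lowest Fasn library in each control group and the highest in each TCM group. With group means kept, the genes most like Fasn were Tmem37 (0.87), Acaca (0.86), Angptl8 (0.84), which encodes a feeding-induced regulator of lipoprotein lipase, Ell (0.84) and Pcyox1 (0.82), and Thrsp stood at 0.50. Acss2 went against the block of Fasn, with r of -0.56 to Fasn and -0.65 to Acaca within groups, and correlated at 0.65 with Mlxipl. Of the 45 pairs of members, 16 lay above 0.5 and 10 below 0 within groups, against 11 and 18 over all 16 libraries.

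**Figure D4:**
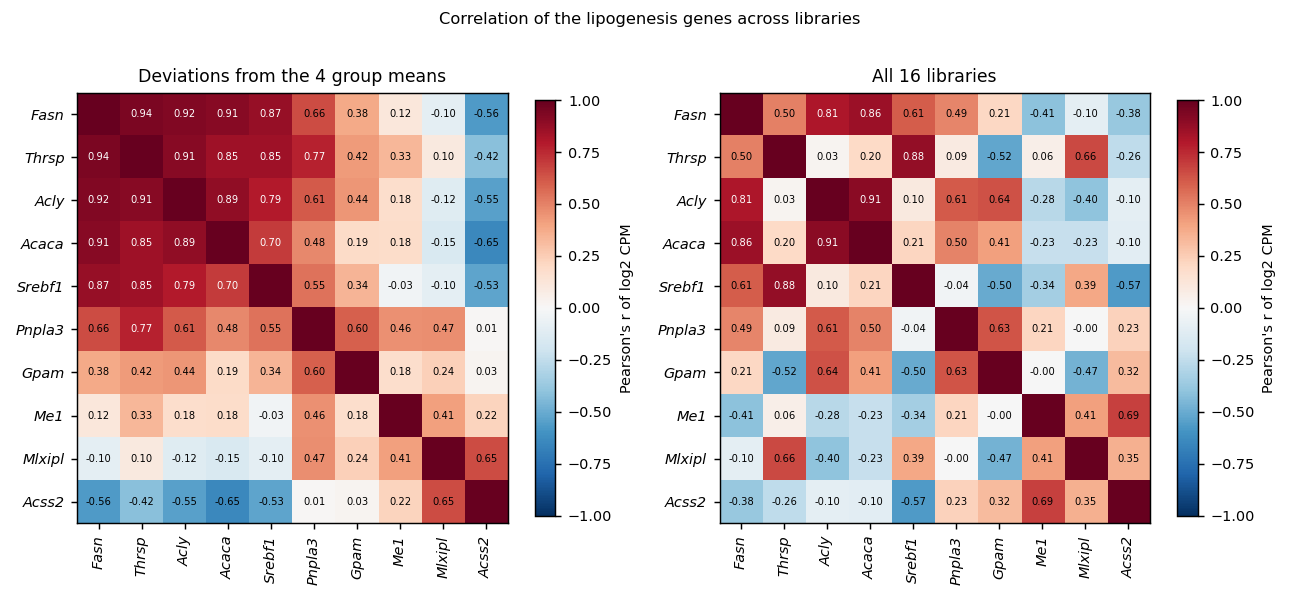
Pearson's r of log2 CPM between the 10 genes, left for deviations from the 4 group means and right over all 16 libraries (colour scale from -1 to 1). Fasn, Thrsp, Acly, Acaca and Srebf1 form a block with r of 0.70 to 0.94 within groups, and Acss2 has negative r to each of them.

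The wider pathway was read from lists of genes, given as counts of called genes in each direction. Of all tested genes, 17.3% were called higher and 15.6% lower in TCM tumors, and 22% and 21.2% in control tumors. With TCM these shares were 6.71% and 7.35% in peri-tumor liver, and 4.55% and 2.72% in tumors. Counts near these shares, such as 6 of 19 genes of SREBP1, LXR and insulin control called in TCM tumors, are not a result about the list. Of 12 tested relatives of the members, 4 rose and 2 fell in tumors of both treatments, 2 rose and 2 fell with TCM in peri-tumor liver and 1 rose with TCM in tumors. Srebf2, the SREBP of cholesterol synthesis, rose in tumors of TCM mice (log2 1.03) and of control mice (1.18), unlike Srebf1. Among acyltransferases, Gpat4 of the endoplasmic reticulum fell in tumors of TCM (-1.003) and control mice (-1.55), opposite to Gpam. Acss3, a mitochondrial relative of Acss2, was higher in TCM mice in peri-tumor liver (1.74) and in tumors (2.73), as Acss2 was, and in contrast to it was far lower in tumors of TCM (-2.96) and control mice (-3.95). Pnpla5, a close relative of Pnpla3, rose in tumors of TCM (2.69) and control mice (3.51). Me2, the mitochondrial malic enzyme, fell in TCM peri-tumor liver (-1.17, adjusted p = 0.00633, edgeR), where Me1 rose.

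For the supply of citrate and NADPH, 3 of 12 genes rose and 4 fell in TCM tumors, and 3 rose and 6 fell in control tumors. The pentose phosphate enzymes G6pdx and Pgd rose (TCM 1.04 and 1.0001, control 1.52 and 1.30) and cytosolic malate dehydrogenase Mdh1 fell (TCM -1.06, control -1.30). In TCM mice 3 of 12 rose in peri-tumor liver (Idh1 0.45, G6pdx 0.89 and Cs 0.51) and 2 in tumors, and 0 fell; on library totals without scaling Idh1 and Cs were not called. Of 14 genes of sugar breakdown, 0 rose and 6 fell in TCM tumors, and 0 rose and 8 fell in control tumors. With TCM 2 of 14 rose and 1 fell in peri-tumor liver, where Pdk4 rose (2.19), a kinase that blocks the entry of pyruvate into the citrate cycle, and 3 rose and 0 fell in tumors. Without both libraries of TCM mouse 4, 3 sugar genes and 2 of the citrate and NADPH list fell in TCM tumors, and without both of control mouse 4, 3 sugar genes fell with TCM in peri-tumor liver and 4 of the citrate and NADPH list rose with TCM in tumors.

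Among 19 genes of SREBP1, LXR and insulin control, 1 rose and 5 fell in TCM tumors, and 2 rose and 7 fell in control tumors. In TCM mice 4 rose and 2 fell in peri-tumor liver, and 2 rose and 0 fell in tumors. Without both libraries of TCM mouse 4 these counts were 0 and 2 in TCM tumors and 2 and 1 with TCM in peri-tumor liver, and without those of control mouse 4 they were 4 and 7 in control tumors and 5 and 1 with TCM in tumors. Insig2, which holds SREBP precursors in the endoplasmic reticulum, had 477, 229, 373 and 177 CPM in TCM peri-tumor liver, against 40.0, 48.0, 54.8 and 110.1 CPM in control peri-tumor liver (2.31, adjusted p = 0.00101, edgeR). Irs2, a docking protein of the insulin receptor, also rose there (1.43, lost without TCM mouse 4), Akt1, a kinase of the same pathway, fell (-0.96), and Nr0b2, the bile acid-induced repressor SHP, rose in both tissues of TCM mice (0.72 in peri-tumor liver and 1.45 in tumors; on library totals the peri-tumor value was not called). Of 10 partners and targets of ChREBP, 2 rose and 2 fell in TCM tumors, 2 rose and 4 fell in control tumors, 1 rose and 1 fell with TCM in peri-tumor liver, and 2 rose with TCM in tumors. The calls of Pklr and Khk in TCM tumors were lost without TCM mouse 4 and on library totals, and without control mouse 4 the ChREBP list had 2 higher and 3 lower with TCM in peri-tumor liver. Pyruvate kinase Pklr and ketohexokinase Khk fell in tumors (TCM -0.69 and -0.73, control -1.26 and -1.54), while Fgf21, a hormone of fasting and sugar intake, rose (TCM 2.28, control 4.86).

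Downstream of the pathway, 4 of 15 desaturases and elongases rose and 1 fell in TCM tumors, and 7 rose and 2 fell in control tumors. In TCM mice 5 rose and 1 fell in peri-tumor liver, and 4 rose and 2 fell in tumors. Elovl5, an elongase of polyunsaturated fatty acids, rose with TCM in peri-tumor liver (2.15) and in tumors (1.31), Scd1, the main liver desaturase, rose with TCM in tumors (1.81), and Scd2, a desaturase more abundant in other tissues than in adult liver, rose in tumors of TCM (3.70) and control mice (4.69). Among 19 genes of triglyceride assembly and export, 5 rose and 1 fell in TCM tumors, 6 rose and 2 fell in control tumors, 5 rose and 2 fell with TCM in peri-tumor liver and 1 rose with TCM in tumors. Dgat2, the diacylglycerol acyltransferase that takes up newly made fatty acids, fell with TCM in peri-tumor liver (-0.66), as Srebf1 did. Acsl4 and Acsl5, which activate long-chain fatty acids, rose in tumors (TCM 1.23 and 0.96, control 1.96 and 1.49).

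**Figure D5:**
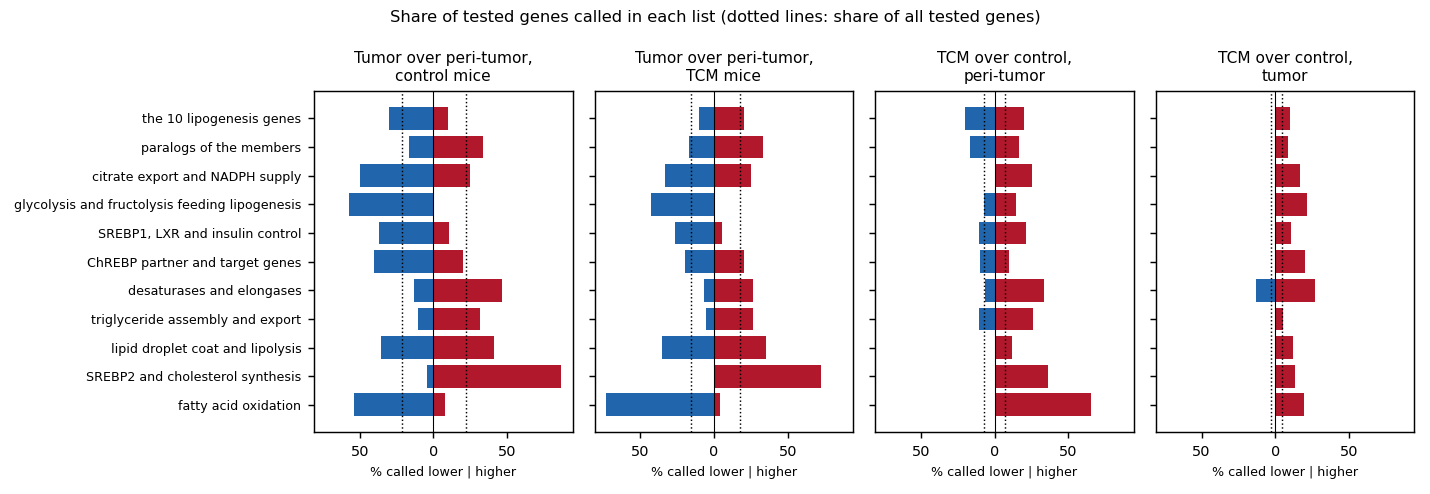
Percent of the tested genes of each list called higher (red, to the right) or lower (blue, to the left) in the 4 comparisons, with the 10 lipogenesis genes on top and dotted lines at the share of all tested genes. In TCM peri-tumor liver 17 of 26 genes of fatty acid oxidation are called higher, and in tumors of both treatments most genes of cholesterol synthesis are.

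Against the 10 genes, cholesterol synthesis and fatty acid oxidation gave values in mostly 1 direction. Of 22 genes of cholesterol synthesis and SREBP2, 16 rose and 0 fell in TCM tumors, and 19 rose and 1 fell in control tumors, with median log2 fold changes of 1.35 in TCM tumors (10 lipogenesis genes 0.28, all genes 0.0043) and 1.57 in control tumors (10 lipogenesis genes -0.15, all genes 0.0010). In peri-tumor liver of TCM mice 8 of the 22 rose and 0 fell, and in their tumors 3 rose and 0 fell. Without both libraries of control mouse 4, 15 rose with TCM in peri-tumor liver and 12 in tumors, and without both of TCM mouse 4, 4 and 1. Lanosterol synthase Lss rose in tumors of TCM (2.70) and control mice (2.29). Of 26 genes of fatty acid oxidation, 1 rose and 19 fell in TCM tumors, 2 rose and 14 fell in control tumors, 17 rose and 0 fell with TCM in peri-tumor liver, and 5 rose and 0 fell with TCM in tumors (8 without control mouse 4). Their median log2 fold change with TCM in peri-tumor liver was 0.48, and the lowest p was that of Etfdh (0.98), which passes electrons from fatty acid oxidation to the respiratory chain. Among 17 genes of the lipid droplet, 6 rose and 6 fell in TCM tumors, 7 rose and 6 fell in control tumors, and 2 rose and 0 fell with TCM in each tissue; Plin2, the droplet coat protein, rose in TCM peri-tumor liver (1.52) and in control tumors (2.002). Of the fatty acid oxidation genes, 1 had a tumor effect that differed between treatments, the mitochondrial dehydrogenase Acadl (-0.65, adjusted p = 0.0341, edgeR), which was lost with the mouse as a block (adjusted p = 0.0629).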

How the data were processed

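Messenger RNA of 16 mouse liver samples was sequenced with a stranded kit, per the labels' protocols. The authors deposited raw counts per gene in 1 table and FPKM per sample; both mm9 and mm10 appear as builds in the submitters' processing notes, and the sources used here give neither the aligner nor the counting tool and its use of strand. The deposited FPKM were checked against the counts: for 9176 genes the implied length per gene differed by at most 0.00132% between libraries. The check covers only whether libraries share a length, and not whether the length is right. The 115 genes with no symbol, kept by their ID, held at most 0.0171% of the counts of a library.

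Counts were fitted in R 4.3.3 with edgeR 4.0.16 (filterByExpr with a minimum count of 10, TMM factors, 1 mean per group, quasi-likelihood F tests, Benjamini-Hochberg over 14865 genes, called at an adjusted p under 0.05), all 16 libraries in 1 fit with 12 residual degrees of freedom. The method was tested on simulated data, drawn without the pairing of tissues by mouse and with far fewer changed genes than were called between tissues here. That test therefore cannot tell how the method performs on paired tissues. Fold changes are log2, intervals are 95%, and log2 CPM for correlations used a prior count of 2. P-values of the main fit measure the spread between mice of a group. Mouse codes in the labels give 4 separate animals per group. These codes also pair the tissues: same-mouse tumor and peri-tumor deviations from group means correlated at 0.043 to 0.24, and 7 of 8 mice matched themselves best. The main fit does not use this pairing, so its p-values between tissues do not measure the spread of differences within mice. The mouse block is therefore given where it changes a call.

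The 10 genes and all lists were chosen with earlier results of these data known. All 10 genes are named in every comparison, and of each other list at most the 4 genes with the lowest p that average at least 1 CPM in the higher group; 1 gene of these lists is not reported here. Gene names were read from GENCODE (GRCm38) and promoters from RefSeq. Counts that share reads with pseudogenes or overlapping genes are uncertain. Alternatives were DESeq2 1.42.0, limma-voom (limma 3.58.1) with sample weights, other scalings and filters, blocks by mouse or number, and fits without single libraries or without control mouse 4. Leaving out TCM mouse 4 and adding pseudogene counts were chosen after seeing the data.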

Additional observations from a re-analysis of the deposited data

Results flagged for a closer look

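Of 40 sets of 4 libraries (10 genes in 4 groups), 3 held a library far from the others by Dixon's test, where chance gives about 1 in 20 sets. Gpam stood at 1340.5 CPM in the tumor of TCM mouse 4, against 556 to 655 CPM in the other TCM tumors, and the call of Gpam between TCM tumors and peri-tumor liver was lost without this library. Srebf1 stood at 450.4 CPM in peri-tumor liver of TCM mouse 4, against 126 to 177 CPM in the other TCM mice, and its lower level in TCM than in control peri-tumor liver was called with and without this mouse. Pnpla3 stood at 25.95 CPM in peri-tumor liver of control mouse 2, against 2.58 to 5.60 CPM in the other control mice. What set these libraries apart was not tested.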

How the results depend on the processing

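The calls of Acss2 and Me1 with TCM in peri-tumor liver, of Acss2 with TCM in tumors, of Srebf1 with TCM in peri-tumor liver, of Me1 in TCM tumors and of Srebf1, Thrsp, Mlxipl and Gpam in control tumors held under each alternative run. The mouse block changed no member's call other than those given in the report. In TCM tumors 3 members were called, with the mouse as a block 5, and 1 to 5 without single libraries. With TCM in tumors 1 member was called; DESeq2 called 3 (adding Me1 and Mlxipl), limma-voom 2, a block by number, which TCM and control mice share only as a name, 2, the fit without control mouse 4 gave 2, and fits without single libraries 1 to 2. In the difference of tumor effects 0 were called; DESeq2 called 3, the mouse block 1, the fit without control mouse 4 gave 2, and fits without single libraries 0 to 2. Thrsp with TCM in peri-tumor liver was called in 11 of 19 alternatives (log2 -2.34 to -1.31); it missed with the block by number (adjusted p = 0.0535, edgeR) and with only the groups compared (0.0788, edgeR).

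Over all genes, calls with TCM in peri-tumor liver were 2091, 3349 by limma-voom, 3434 without control mouse 4 and 1101 to 3228 without single libraries. With TCM in tumors they were 1082, 1805 by DESeq2, 2193 by limma-voom, 687 with no filter, 1877 without control mouse 4 and 404 to 1250 without single libraries. In the difference of tumor effects they were 165, 806 by DESeq2, 603 by limma-voom, 89 on library totals without scaling, 79 with no filter, 107 with the mouse block, 714 without control mouse 4 and 58 to 665 without single libraries. Library totals moved the median of all genes to 0.14 (log2) in TCM tumors and 0.11 in control tumors, and calls to 3306 higher and 1468 lower in TCM tumors (2572 and 2325 with TMM), 3856 and 2369 in control tumors (3271 and 3144), 551 and 1322 with TCM in peri-tumor liver (998 and 1093) and 407 and 453 with TCM in tumors (677 and 405).

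Signs turned round only in values that were not called. Pnpla3 with TCM in peri-tumor liver was -0.088 on library totals, -0.26 without control mouse 4, -0.17 without TCM mouse 4 and -0.25 to 1.35 without single libraries. Its difference of tumor effects was -0.00095 by limma-voom, -0.14 with the mouse block and -0.81 to 0.77 without single libraries, and in control tumors it was -0.0078 with a filter of 1 CPM, -0.0034 with no filter, -0.40 without control mouse 4 and -0.30 to 1.29 without single libraries. Fasn with TCM in tumors was -0.0028 without TCM mouse 4. Without single libraries Acaca in control tumors ran from -0.099 to 0.23, Acss2 from -0.023 to 0.24 in TCM tumors and from -0.44 to 0.011 in control tumors, and Srebf1 in TCM tumors from -0.56 to 0.27. The causes were not tested. Pnpla3 had the widest interval of the 10 genes in each comparison, and whether depth limits it was not tested.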

Other observations

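Lipid droplet genes beside the coat gene Plin2 also differed between groups. Fitm1, a protein of droplet formation at the endoplasmic reticulum, averaged 3.62 ± 1.42 CPM in TCM tumors, 0.999 ± 0.767 in control tumors, 26.7 ± 6.56 in TCM peri-tumor liver and 7.58 ± 2.26 in control peri-tumor liver (mean ± SD, n = 4 each). It was called lower in tumors of TCM (log2 -2.89) and control mice (-2.93) and higher with TCM in peri-tumor liver (1.82) and in tumors (1.86). Mgll, the lipase that splits monoacylglycerol, was called lower in tumors of TCM (-0.98) and control mice (-1.44). Plin2 itself averaged 999.8 ± 270.5 CPM in TCM tumors, 897 ± 135 in control tumors, 642 ± 92.9 in TCM peri-tumor liver and 224 ± 91.7 in control peri-tumor liver.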
